A study of Bos taurus with 252 samples.

Results

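The genes described here are the neutrophil surface receptors CXCR1, CXCR2, CSF3R, FPR1, ITGAM and ITGB2 and the S100 proteins S100A8, S100A9 and S100A12, measured as transcripts in whole blood of beef steers. They were chosen by symbol, and 7 of the 9 had a row among the 33282 genes of the count table. CSF3R and FPR1 had none under those symbols and were not analysed here. All 7 passed the filter on low counts, which required over 0.2 CPM (counts scaled to a library total of 1000000) in at least 12 libraries and left 19056 genes.

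Blood was drawn 6 times from each of 42 crossbred steers, on day 0, in the first weeks (days 3, 7, 14 and 21) and on day 56 of a feedlot receiving period, giving 1 library for each steer and day. A single metaphylactic antimicrobial, given after the day 0 draw, defined 6 groups of 6 steers. The macrolides tildipirosin (TILD) and tulathromycin (TULA) were given to a group each, as were the cephalosporin ceftiofur (CEFT), the fluoroquinolone enrofloxacin (ENRO), the phenicol florfenicol (FLOR) and the tetracycline oxytetracycline (OXYT). Another 6 steers, the negative control (NC), received no antimicrobial at that time. Per the methods of the study, every steer, NC included, had been given tildipirosin, a hormonal implant, vaccines and dewormers at the start of backgrounding before arrival, each group was kept in 1 pen, and NC cattle were handled first on the days after day 0, so that pen and handling order cannot be told apart from treatment.

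Neutrophils are the first leukocytes to leave the blood for infected tissue, including the airways in bovine respiratory disease. CXCR1 and CXCR2 are receptors for CXCL8 and related chemokines, which direct that movement. ITGAM and ITGB2 are the chains of an integrin that binds complement fragments and endothelial ligands. S100A8 and S100A9 pair to form calprotectin, a calcium- and zinc-binding protein abundant in neutrophil cytosol, and S100A12 is a related alarmin of granulocytes. In the order of genes in RefSeq's cattle annotation, S100A8, S100A12 and S100A9 are neighbours, and CXCR2 lies between RUFY4 and CXCR1.

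Library totals (in units of 1000000 counts) ran from 26.1 to 74.1, with a median of 43.6. Counts per library went from 5 to 3185 for ITGAM, from 99 to 11340 for CXCR2 and from 1018 upwards for the other members. Hemoglobin genes took from 0.00405% to 25.5% of the counts, with a median of 0.224% on day 0 and medians of 3.07% and 3.36% on days 14 and 21. The 10 neutrophil markers outside the members were detected in every library, as were LYZ, CD3E and CD79A of the monocyte, T cell and B cell lists. Each group except FLOR and TILD was sequenced on a single lane. Lane 1 carried NC, ENRO and 2 FLOR steers, and lane 2 carried TULA with 4 FLOR and 4 TILD steers. Lane 3 carried CEFT, OXYT and 2 TILD steers. In whole blood, fewer neutrophils and less transcript per neutrophil cannot be told apart.

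The first comparison asked how the transcripts changed after arrival, over all 42 steers, with each steer as its own reference. S100A8, S100A9, S100A12 and CXCR1 were lower than on day 0 on every later day. CXCR2 passed the test on day 21 only, ITGB2 was slightly lower on days 7 and 14, and ITGAM passed on no day. With steer as a block in edgeR's quasi-likelihood test, 6 of the 7 members passed a false discovery rate (FDR) of 0.05 for any difference among days, beside 81% of all genes tested. Against day 0, the members called, all lower, numbered 4 on day 3 (41.3% of all genes called) and 4 on day 56 (65.7%), and 5 on each of days 7 (45.9%), 14 (65.1%) and 21 (66.6%). The median log2 fold change of the 7 members was -0.31 on day 3 and -0.76 on day 21, beside 0.02 over all genes on both days.

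**Figure D1:**
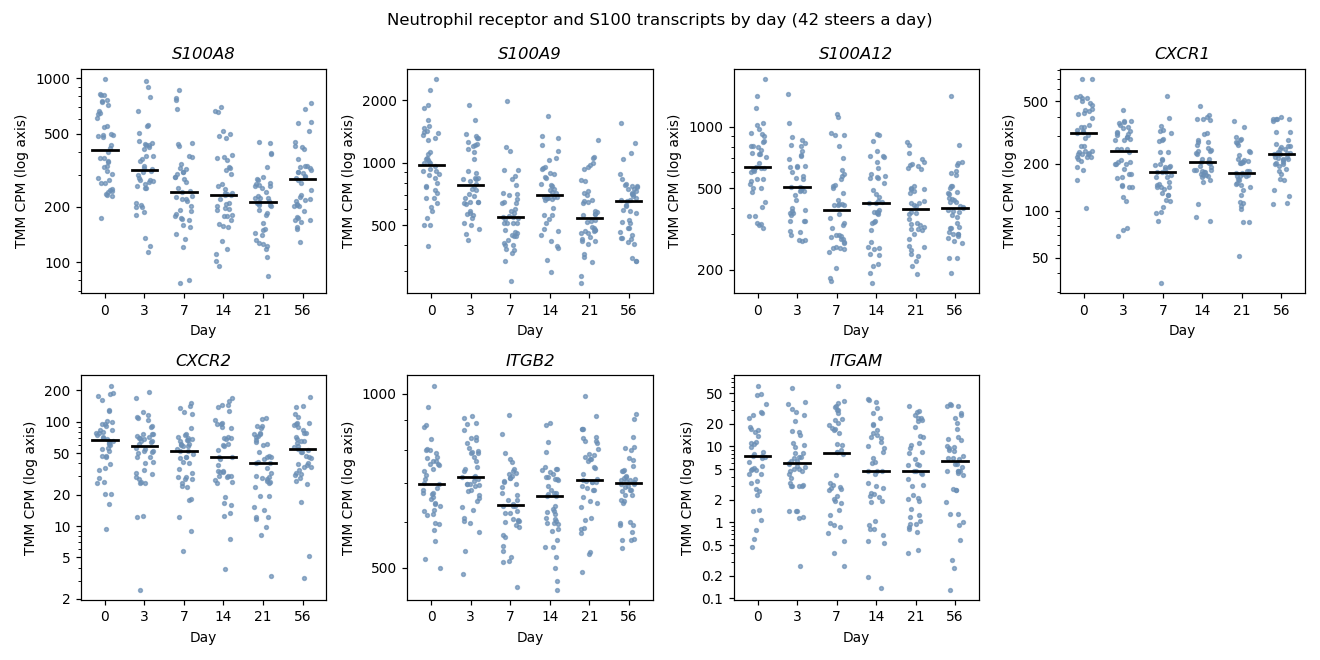
Each point is 1 steer on 1 day (42 steers a day), as TMM-scaled CPM on a log axis; days are evenly spaced and bars are medians. The S100A9 median was 979 CPM on day 0 and 544 CPM on day 21, whereas ITGB2 stayed between 458 and 1033 CPM and ITGAM spread from 0.131 to 63.1 CPM.

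S100A8, one chain of calprotectin, had the largest fall among the members. On day 0 its lowest, median and highest levels over the 42 steers were 175, 409 and 996 CPM, after scaling by the trimmed mean of M-values (TMM). On day 21 they were 84, 213 and 449 CPM, and 38 of the 42 steers were below their own day 0 level, although the 2 distributions overlapped. The log2 fold change was -1.04 (SE 0.13, edgeR FDR 4.7e-13) on day 21. It was -0.37, -0.68 and -0.74 on days 3, 7 and 14, and -0.61 on day 56, all past the threshold, and the partial return from day 21 to day 56 (0.43, FDR 0.0213) passed as well.

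S100A9, the other chain, followed a course with 2 low points. Its medians were 979 CPM on day 0, then 780, 545 and 699 CPM on days 3, 7 and 14, 544 CPM on day 21 and 655 CPM on day 56. Log2 fold changes from day 0 were -0.31 (SE 0.11, edgeR FDR 0.0144) on day 3, -0.81 (SE 0.11, FDR 7.7e-11) on day 7 and -0.85 (SE 0.11, FDR 1.7e-12) on day 21. The fall from day 3 to day 7 (-0.50, FDR 0.00019), the rise to day 14 (0.29, FDR 0.0174) and the second fall to day 21 (-0.34, FDR 0.0225) each passed the test between successive days. The smallest change, on day 3, was not called without the NC, FLOR or TULA steers, when it ranged from -0.23 to -0.27.

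S100A12 fell early and stayed low. Its lowest, median and highest levels were 320, 633 and 1714 CPM on day 0 and 176, 394 and 1147 CPM on day 7. The log2 fold change was -0.35 on day 3, between -0.67 and -0.75 on days 7, 14 and 21, and -0.72 (SE 0.11, edgeR FDR 7.5e-09) on day 56, when 37 of 42 steers were below day 0. No step between successive days after day 7 passed the test. On day 56 the S100A8 median was 283 CPM against 213 CPM on day 21, while the S100A12 medians of the same days, 402 and 396 CPM, were near each other.

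CXCR1, the receptor most selective for CXCL8, fell in parallel. On day 0 its levels ran from 103.5 to 698 CPM with a median of 315 CPM, and on day 7 from 34.5 to 539 CPM with a median of 176 CPM. On day 7, 39 of 42 steers were below day 0, and the ranges still overlapped. Its log2 fold changes were -0.52, -0.81, -0.57, -0.86 and -0.51 on the 5 later days in order (SE 0.10 to 0.11, each edgeR FDR under 0.05), and each of the 4 steps from day 3 onwards passed the test too. In order of fitted level, days 0, 56, 3, 14, 7 and 21 followed each other; day 56 with day 3, day 3 with day 14 and day 7 with day 21 are neighbours in that order that were not compared by a test.

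The calls on single days are given beside their backgrounds between successive days. From day 3 to day 7, 4 members were lower (21.4% of all genes called). From day 7 to day 14, CXCR1 and S100A9 were higher (49.2%). From day 14 to day 21, CXCR1 and S100A9 were lower and ITGB2 was higher (13%), and from day 21 to day 56, CXCR1 and S100A8 were higher (7.16%). The falls of the 4 strongest members had the same direction in each lane taken alone: from day 0, S100A8, S100A9, S100A12 and CXCR1 were lower on all 5 later days in lanes 1, 2 and 3, with 2 to 4 of those days past the threshold in each lane. For S100A9 the values in lane 3 went from -0.75 to -0.03.

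ITGB2, the shared chain of the leukocyte integrins, was the steadiest member. Over all libraries it ranged from 458 to 1033 CPM, a 2.25-fold span, and within a steer its highest and lowest days differed by a median of 1.34-fold. Its log2 fold changes were -0.12 (SE 0.03, edgeR FDR 0.00078) on day 7 and -0.11 (SE 0.03, FDR 0.00096) on day 14, and between 0.04 and -0.02 on days 3, 21 and 56, where it was not called. Its medians were 699 CPM on day 0, 643 CPM on day 7 and 665 CPM on day 14, with full overlap of the steers.

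ITGAM, the partner chain of ITGB2, could not be followed in the same way. Its lowest, median and highest levels were 0.482, 7.39 and 62.1 CPM on day 0 and 0.401, 4.75 and 34.5 CPM on day 21. Within a single steer its highest day exceeded its lowest by a median of 20.9-fold, against 2.60-fold for S100A9. Steer accounted for 22% of its variance on the log2 scale and day for 1.40%, whereas for ITGB2 steer accounted for 54%. Over all genes with a mean of at least 1 CPM the medians were 40.2% and 12.5%, and the numbers of steers and days alone give 16.3% and 1.99%. No contrast with day 0 passed the test. The log2 fold changes lay between -0.54 and 0.10, with standard errors of 0.36 to 0.37 against 0.11 for S100A9.

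**Figure D2:**
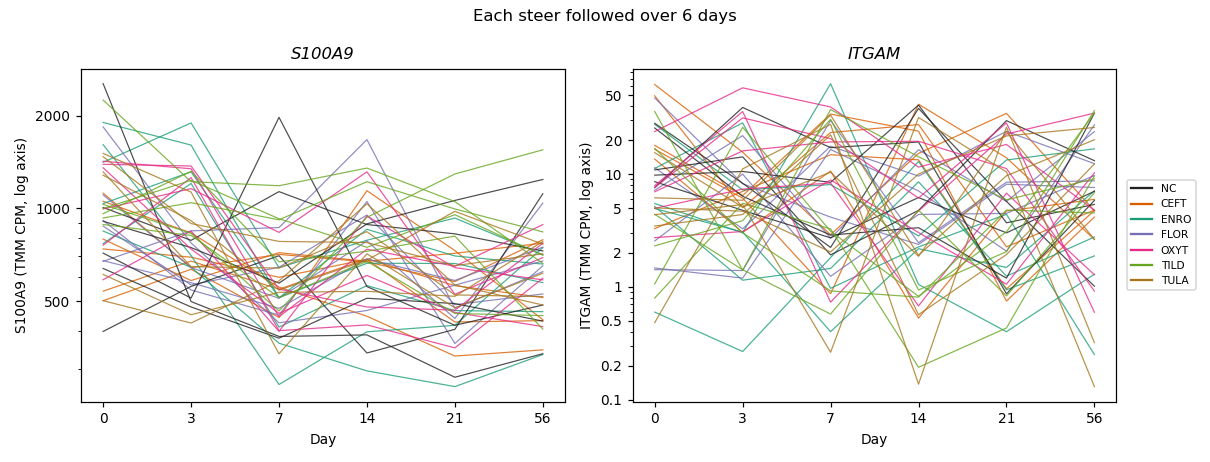
Each line is 1 steer over 6 evenly spaced days, as TMM-scaled CPM on a log axis, coloured by group. S100A9 fell from a median of 979 CPM on day 0 to 545 CPM on day 7, while ITGAM lines cross throughout, with a median within-steer range of 20.9-fold.

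CXCR2, which binds a wider set of chemokines than CXCR1, gave a similarly scattered row. Its lowest, median and highest levels were 9.27, 66.3 and 222 CPM on day 0 and 3.32, 40.3 and 108 CPM on day 21. The log2 fold change was -0.76 (SE 0.22, edgeR FDR 0.00105) on day 21, when 31 of 42 steers were below day 0. The other days gave -0.26, -0.49, -0.38 and -0.25 (FDR 0.0511 on day 7 and higher on the rest). Its test over all days (FDR 0.0232) was not passed without the NC steers (FDR 0.0767), without the CEFT steers (FDR 0.0971) or without the ENRO steers (FDR 0.129).

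The counts of CXCR2 were read beside those of RUFY4, the gene next to it, a pair chosen after the values were seen. Over all libraries of the 42 steers CXCR2 and CXCR1 had a Spearman correlation of 0.36, whereas RUFY4 and CXCR1 had 0.91 and the sum of CXCR2 and RUFY4 had 0.95. Within lanes the sum had 0.95, 0.96 and 0.93 and CXCR2 alone 0.34, 0.31 and 0.41; these are descriptions over libraries that share steers and days. The log2 ratio to CXCR1 had an SD of 1.12 for CXCR2, 0.28 for RUFY4 and 0.18 for their sum. CXCR2 held from 0.655% to 69% of the summed counts, with a median of 17.6%. How reads were divided between these rows was not tested.

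**Figure D3:**
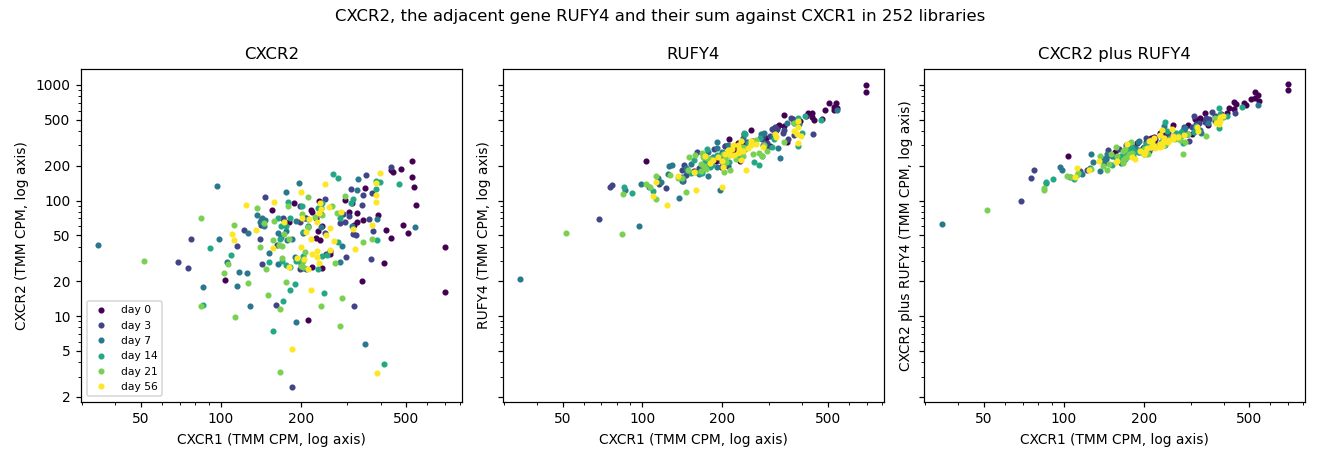
Each point is 1 library (42 steers on 6 days), coloured by day, with CXCR1 on the horizontal axis and CXCR2, RUFY4 or their sum on the vertical axis (TMM-scaled CPM, log axes). The sum (Spearman correlation 0.95) and RUFY4 alone (0.91) follow CXCR1, and CXCR2 alone does not follow it closely (0.36).

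With both rows summed, a choice made after seeing the data, the decline resembled that of CXCR1 in size. CXCR2 held a median of 17.6% of that sum, so the sum mostly reflected RUFY4 counts. RUFY4 alone had medians of 407 CPM on day 0, 201 and 222 CPM on days 7 and 21, and 267 CPM on day 56. The sum had medians of 458 CPM on day 0, 264 and 253 CPM on days 7 and 21, and 320 CPM on day 56. Its log2 fold changes from day 0 were -0.54, -0.82, -0.65, -0.99 and -0.63 on the later days in order (SE 0.09), with an edgeR FDR of 4.9e-07 or lower on each. How reads were divided between the rows was not tested, and the values of the CXCR2 row in the comparisons of treatments, ratios and correlations carry the same limit.

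Cell-type markers moved over the same days, and their part in these changes was not tested. The summed level of 10 other neutrophil markers, such as NCF1 and PADI4, had a median of 1436 CPM on day 0 (961 to 2813) and 1102 CPM on day 21 (682 to 1990). These markers included CSF2RB, TREM1 and another gene of the receptor list, and MMP9 of the granule list. The 10 T cell markers had a median of 1762 CPM on day 0 (1367 to 2596) and 2469 CPM on day 21 (1848 to 3801). The 9 monocyte markers went from 2523 CPM (1610 to 5675) to 1825 CPM (1122 to 3401), the 7 B cell markers from 1712 CPM (965 to 2481) to 2125 CPM (928 to 3162), the 7 NK and cytotoxic markers from 551 CPM (329 to 2300) to 479 CPM (194 to 1128), the 6 eosinophil and basophil markers from 660 CPM (385 to 1290) to 544 CPM (290 to 885), the 7 platelet markers from 813 CPM (312 to 2160) to 1014 CPM (427 to 2322) and the 8 erythroid genes from 2338 CPM (38.1 to 39289) to 35425 CPM (704 to 262020). Without the 41 libraries with over 5% hemoglobin counts, S100A8, S100A9, S100A12 and CXCR1 were again called against day 0, and 5 of the 7 members passed the test over all days.

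Related genes were read from 4 lists. Of 22 chemoattractants and receptors tested, 12 were lower and 2 higher on day 21 than on day 0, where 66.6% of all genes were called. The 14 calls are near that share, and the same background stands behind the day 21 counts of the other lists. CSF2RB, the shared receptor chain for granulocyte-macrophage colony-stimulating factor, fell (log2 fold change -0.61, SE 0.05, edgeR FDR 5.2e-22), as did TREM1, an amplifier of myeloid activation (-0.77, SE 0.07, FDR 1.6e-19), and C5AR2, a receptor for complement C5a (-0.98, SE 0.10, FDR 3.0e-18). CXCL12, the ligand of CXCR4, rose (0.82, SE 0.06, FDR 2.7e-32). The median log2 fold change of the list was -0.38, beside 0.02 over all genes.

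Of 17 integrins and adhesion genes, 7 were lower and 3 higher on day 21. ITGAX, another alpha chain that pairs with ITGB2, fell (-0.55, SE 0.04, edgeR FDR 5.7e-26), and so did ITGA4 (-0.44, SE 0.05, FDR 1.3e-15), while FERMT3, which activates leukocyte integrins, rose (0.19, SE 0.04, FDR 1.0e-06). The median of the list was -0.13. Of 14 other S100 genes and receptors, 9 were higher and 2 lower on day 21, with a median of 0.24, whereas the 3 S100 members were all lower. S100A13 rose (0.69, SE 0.05, FDR 5.0e-28), as did S100A4 (0.38, SE 0.06, FDR 7.0e-09) and S100A16 (1.60, SE 0.30, FDR 5.6e-07), while TLR4, a receptor for calprotectin, fell (-0.59, SE 0.07, FDR 8.8e-13). Of 19 granule proteins, 10 were lower and none higher on day 7, beside 45.9% of all genes called, but on day 21, 3 were lower and 4 higher. MPO, the myeloperoxidase of azurophil granules, rose (0.98, SE 0.17, FDR 4.2e-08), and so did MMP25 (0.25, SE 0.05, FDR 1.9e-05). MMP9, the gelatinase of tertiary granules, fell (-0.80, SE 0.14, FDR 5.8e-08), as did OLFM4 (-0.53, SE 0.12, FDR 2.1e-05). The median of this list was -0.67 on day 7 and -0.01 on day 21.

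The second comparison asked whether an antimicrobial group differed from NC on the same day. The 36 comparisons take in those on day 0, before the antimicrobial was given. Over these comparisons and 7 members, 3 tests passed an FDR of 0.1, beside 0.699% of all gene tests pooled, and 21 had an unadjusted p under 0.05. Over all 19056 genes, the number with such a p on day 3 was between 1702 (TULA) and 4827 (CEFT). These numbers cover day 3 alone, whereas the 21 member tests come from all days, so they are not matched. All 3 calls were S100A9 on day 3, where ENRO, OXYT and TILD were higher than NC. These 3 comparisons share the same 6 NC libraries, so they are not independent of each other.

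**Figure D4:**
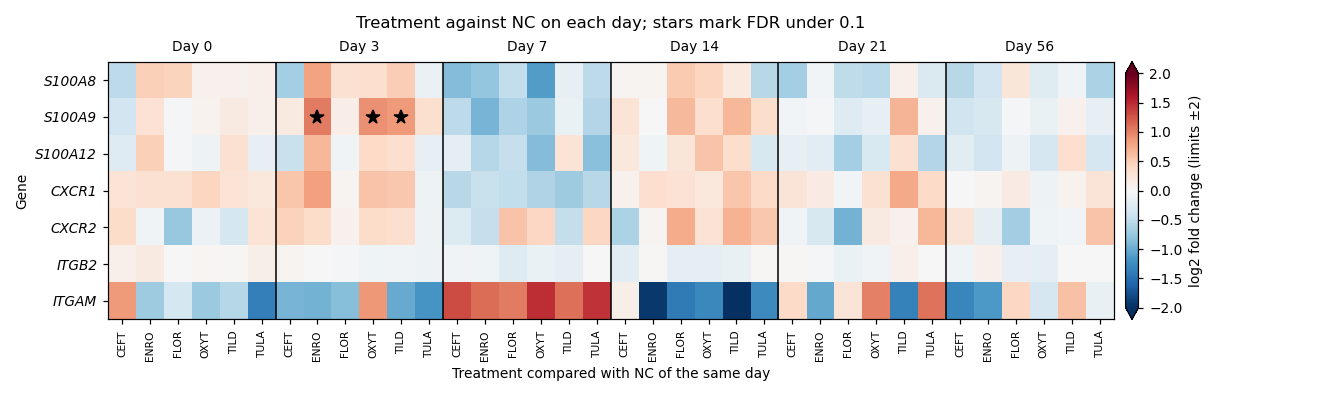
Rows are the 7 members and columns the 6 treatments on each of 6 days; colour is the log2 fold change against NC of the same day, limited to ±2, and stars mark an FDR under 0.1. The 3 stars are S100A9 on day 3, in ENRO, OXYT and TILD.

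In NC on day 3, S100A9 had a lowest, median and highest level of 479, 535 and 788 CPM. In ENRO it had 644, 1261 and 1897 CPM, and 4 of 6 steers were above the highest NC steer. The log2 fold change was 1.04 (SE 0.26, edgeR FDR 0.0808, with 3.28% of all genes called in that comparison). NC and ENRO were sequenced on the same lane.

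In OXYT the S100A9 levels on day 3 were 738, 1210 and 1374 CPM, with 5 of 6 steers above all NC steers. The log2 fold change was 0.91 (SE 0.19, edgeR FDR 0.0562, with 2.97% of all genes called). In TILD they were 817, 1133 and 1321 CPM, and all 6 steers were above all NC steers, the only 1 of the member tests in which the groups did not overlap. Over all genes the steers did not overlap in 2.5% of the tests of TILD on day 3 and in 0.81% of those of all 36 comparisons. The log2 fold change was 0.85 (SE 0.17, edgeR FDR 0.0501, with 3.14% of all genes called). No OXYT or TILD steer shared a lane with NC, and the lanes were linked only through the FLOR and TILD steers. With lane as a further term, the log2 fold change was 0.92 (SE 0.54, edgeR FDR 0.834) for OXYT, 0.86 (SE 0.42, FDR 0.683) for TILD and 1.04 (SE 0.23, FDR 0.0258) for ENRO, so that the estimates stayed near the first ones while the errors of OXYT and TILD grew. After ComBat_seq the FDR was 0.182, 0.409 and 0.084, with log2 fold changes of 0.91, 0.77 and 0.89. Without the filter on low counts the ENRO call was lost (FDR 0.12).

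The calls were sensitive to single steers. Leaving out 1 steer at a time, the S100A9 FDR ranged from 0.0598 to 0.168 for ENRO, from 0.0282 to 0.125 for OXYT and from 0.0568 to 0.12 for TILD, with log2 fold changes of 0.88 to 1.17, 0.84 to 1.0 and 0.79 to 0.95. The ENRO call was lost without ENRO steers 5, 6, 9 or 10 or NC steers 7, 12, 13 or 15. The OXYT call was lost without OXYT steer 5 or the same 4 NC steers, and the TILD call without TILD steer 5 or NC steers 7, 12 or 13.

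S100A9 levels in the other groups on day 3 were 583, 658 and 833 CPM in CEFT, 543, 608 and 846 CPM in FLOR and 424, 770 and 1131 CPM in TULA, all overlapping NC. Their log2 fold changes were 0.18, 0.14 and 0.32, not called. On day 7 the NC steers spread from 379 to 1978 CPM, and no group passed the test against NC. Whether the called groups differed from CEFT, FLOR or TULA was not tested.

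**Figure D5:**
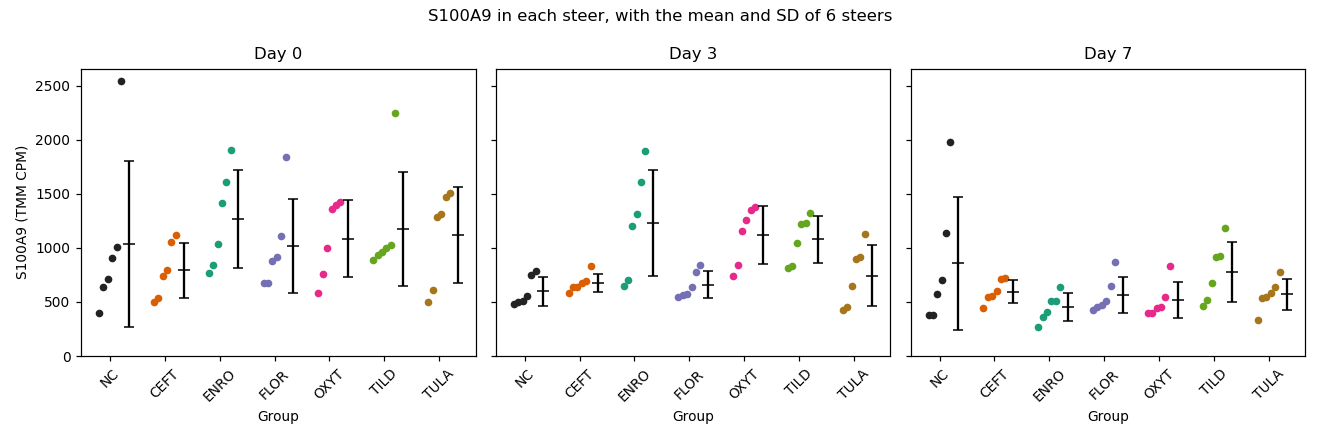
Points are the 6 steers of each group, sorted by level, with the mean and SD beside them, as TMM-scaled CPM of S100A9 on days 0, 3 and 7. On day 3 the TILD steers (817 to 1321 CPM) lie above all NC steers (479 to 788 CPM), whereas on day 0 the groups overlap. Already on day 0, all 6 TILD, 5 of 6 ENRO and 4 of 6 OXYT steers were above the NC median.

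The other neutrophil markers were read beside S100A9 on day 3, without a test. Their summed level had a lowest, median and highest value of 751, 1104 and 1557 CPM in NC, 1219, 1529 and 1974 CPM in ENRO, 1191, 1571 and 1799 CPM in OXYT and 1123, 1369 and 1925 CPM in TILD. It was 1197, 1311 and 1686 CPM in CEFT, 926, 1153 and 1367 CPM in FLOR and 898, 1126 and 1462 CPM in TULA. Every group overlapped NC, and none of the 10 was at 0 in any library. Monocyte markers had medians of 2584 CPM in NC (1993 to 3099), 2005 CPM in ENRO (1576 to 4857), 3102 CPM in OXYT (1943 to 5033) and 2706 CPM in TILD (1496 to 4786). Their part in the S100A9 differences was not tested.

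The remaining members on day 3 moved less, or spread more. S100A8 had 180, 292 and 457 CPM in NC and 200, 540 and 898 CPM in ENRO (log2 fold change 0.81, SE 0.34, edgeR FDR 0.247), and in CEFT it had 114, 194 and 281 CPM (-0.68, SE 0.26, FDR 0.129). CXCR1 had 75.4, 181 and 340 CPM in NC and 247, 330 and 374 CPM in ENRO (0.83, SE 0.28, FDR 0.158). DESeq2 called S100A8 in CEFT (FDR 0.0678) and CXCR1 in ENRO (FDR 0.0528) beside the 3 S100A9 differences. With CXCR2 and RUFY4 summed, that sum, in the median library mostly RUFY4 counts, was called in ENRO on day 3 as well (0.85, SE 0.23, edgeR FDR 0.0978). Over all 36 comparisons ITGB2 stayed between -0.25 and 0.17, the narrowest span of the members, and ITGAM went from -2.37 to 1.47, the widest, with no call for either. CXCR2 went from -0.94 to 0.75.

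Among the related lists, day 3 held all calls against NC. PTAFR, the receptor for platelet-activating factor, was higher in ENRO (0.99, SE 0.24, edgeR FDR 0.0751), and TNFRSF1A in OXYT (0.64, FDR 0.0943) and in CEFT (0.62, FDR 0.0783), a comparison in which 10.9% of all genes were called. CXCL8, the ligand of CXCR1 and CXCR2, was lower in CEFT (-1.65, SE 0.41, FDR 0.0573), and CATHL3, a cathelicidin of bovine neutrophil granules, was lower in CEFT as well (-5.14, SE 1.39, FDR 0.0581). The median log2 fold change of the granule list on day 3 was below 0 in all 6 groups, which share the NC libraries, from -2.36 in OXYT and -2.25 in CEFT through -2.02 (FLOR), -1.95 (TULA) and -1.63 (ENRO) to -1.12 in TILD. JAML, an adhesion molecule of leukocytes, was higher in ENRO (1.39, SE 0.36, FDR 0.0871). In all, 4 of 792 tests of chemoattractants and receptors, 6 of 612 of adhesion genes, 1 of 504 of other S100 genes and 7 of 684 of granule proteins were called over the 36 comparisons, beside 0.699% of all gene tests.

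The third comparison took each steer's change from day 0 and set it against that of NC. Of 210 member tests, 1 passed an FDR of 0.1, beside 0.75% of all gene tests pooled, and 17 had an unadjusted p under 0.05. Over all 19056 genes, the number with such a p was between 617 (TILD on day 56) and 4205 (ENRO on day 7). The call was S100A9 in ENRO on day 7, with a log2 difference of -1.13 (SE 0.39, edgeR FDR 0.0579, with 11.3% of all genes called in that contrast). The other treatments on day 7 were below 0 as well, without a call: -0.06 in CEFT, -0.23 in TILD, -0.51 in FLOR, -0.56 in TULA and -0.75 in OXYT. All of these differences share the same NC steers. In ENRO the lowest, median and highest levels were 769, 1225 and 1904 CPM on day 0 and 268, 462 and 642 CPM on day 7, so that the days did not overlap. In NC they were 398, 812.5 and 2544 CPM on day 0 and 379, 637 and 1978 CPM on day 7, with wide overlap. The 3 groups called on day 3 did not pass this test on day 3: their log2 differences were 0.74 in ENRO (SE 0.38, FDR 0.769), 0.89 in OXYT (SE 0.38, FDR 0.879) and 0.78 in TILD (SE 0.38, FDR 0.535).

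Over the whole course, the timepoint:group interaction was called in 2 of 42 member tests at an FDR of 0.05, beside 2.98% of all gene tests pooled. In 10 of the 42 an unadjusted p was under 0.05. Over all 19056 genes, the number with such a p was between 2139 (TULA) and 4960 (CEFT) for a treatment. Both calls were S100A9: in ENRO (edgeR FDR 0.0071, with 8.67% of all genes called) and in OXYT (FDR 0.0455, with 3.25%). By limma the ENRO interaction passed (FDR 0.0073) and that of OXYT did not (FDR 0.0988). For S100A12 in OXYT (FDR 0.0876) and CXCR1 in TILD (FDR 0.084) the threshold was missed. The course of S100A9 in OXYT ran through medians of 1176, 1210, 451, 672, 497 and 643 CPM from day 0 to day 56, and that in NC through 812.5, 535, 637, 534, 454 and 607 CPM. The granule proteins were the related list with most calls in the change from day 0, 41 of 570 tests, all lower, of which 9 were in ENRO on day 3 (0.0787% of all genes called), 12 in ENRO on day 7 (11.3%) and 10 in ENRO on day 14 (0.105%). On day 7 in ENRO the smallest FDR among them was that of LCN2, an iron-trapping lipocalin of neutrophil granules (-1.58, SE 0.32, edgeR FDR 0.0032).

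The average over all 6 days takes in day 0, drawn before administration. In this average, no member differed between a treatment and NC in limma's test (0 of 42 at an FDR of 0.05, beside 1.95% of all gene tests pooled), and 1 had an unadjusted p under 0.05. Over all 19056 genes, the number with such a p was between 1629 (ENRO) and 3890 (TILD) for a treatment. The 1 member test was S100A9 in TILD, with a log2 difference of 0.47 (SE 0.21, limma FDR 0.182). Mean levels per steer were lowest at 633, in the middle at 960 and highest at 1288 CPM in TILD, and 488, 758 and 904 CPM in NC, so that the groups overlapped. In order of their median over steers, S100A9 ran from CEFT (622 CPM) through FLOR (715), ENRO (743), OXYT (755), NC (758) and TULA (772) to TILD (960). None of the 6 passed the test against NC, and the other neighbours in this order were not compared. CXCR1 differences from NC lay between 0.11 and 0.35, those of S100A8 between -0.45 and 0.17, those of S100A12 between -0.34 and 0.36 and those of ITGB2 between -0.12 and 0.04.

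The fourth comparison used ratios of 2 members in the same library, which do not depend on the scaling. None of 20 changes from day 0 passed an FDR of 0.05 in a two-sided sign-flip permutation test over steers, and 3 had an unadjusted p under 0.05. The log2 ratio of S100A8 to S100A9 was -1.22 ± 0.56 (SD, n = 42) on day 0, -1.50 ± 0.51 on day 14 and -1.45 ± 0.44 on day 21. It was lower by 0.28 ± 0.70 (SD of the difference) on day 14, with 14 of 42 steers higher (permutation p = 0.012, adjusted 0.12), and by 0.23 ± 0.54 on day 21, with 16 higher (permutation p = 0.0107, adjusted 0.12). The ratio of CXCR1 to CXCR2 was 2.33 ± 1.02 on day 0 and 1.95 ± 1.15 on day 7, with 19 of 42 higher (permutation p = 0.0401, adjusted 0.267). It rests on the CXCR2 row, whose division of reads with RUFY4 was not tested. The ratio of ITGAM to ITGB2 had an SD of 1.72 on day 0, and its largest mean change, on day 21, was -0.64 ± 2.13.

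Across steers, the mean log2 level over 6 days was compared for the 21 pairs of members. Where r is given without 2 steers, these were the 2 farthest from the median of the first gene named. Steers extreme in the second gene stayed in. The 3 S100 genes went together. For S100A9 and S100A12, Pearson's r was 0.77 and Spearman's rho 0.77 (n = 42, both permutation p = 1e-05, the smallest that 100000 permutations can give, adjusted 7e-05), with r = 0.75 without the 2 steers farthest from the median and rho of 0.81, 0.75 and 0.71 in lanes 1, 2 and 3. For S100A8 and S100A9, r was 0.66 and rho 0.69 (same p), with r = 0.62 without 2 steers and rho of 0.89, 0.51 and 0.76 within lanes. For S100A8 and S100A12, r was 0.69 and rho 0.66 (same p), with r = 0.65 without 2 steers and rho of 0.78, 0.81 and 0.38 within lanes.

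CXCR1 and S100A9 passed by both measures as well. Their r was 0.49 (permutation p = 0.0009, adjusted 0.0047) and their rho 0.42 (permutation p = 0.0057, adjusted 0.0297). Without the 2 steers farthest from the median r was 0.34, and within lanes rho was 0.72, 0.34 and 0.18. These 4 of the 21 pairs passed an adjusted p of 0.05 by both measures. CXCR1 and CXCR2 had r = 0.30 (permutation p = 0.0549, adjusted 0.192) and rho = 0.39 (permutation p = 0.0111, adjusted 0.0466), so that rho alone passed. Without the 2 steers farthest from the median their r was 0.53, and within lanes rho was 0.13, 0.34 and 0.65. ITGAM and ITGB2 had r = -0.08 and rho = -0.07 (permutation p = 0.637 and 0.679, adjusted 0.787 and 0.892). On day 0 alone, 6 of the 21 pairs passed by both measures, which added lower ITGAM with higher S100A8 (r = -0.39, permutation p = 0.0118, adjusted 0.0412, and rho = -0.40, permutation p = 0.0092, adjusted 0.0386) and with higher S100A9 (r = -0.40, permutation p = 0.0093, adjusted 0.0391, and rho = -0.39, permutation p = 0.0114, adjusted 0.0398). Without 2 steers these r were -0.42 and -0.35, and within lanes rho was -0.46, -0.58 and -0.21 for S100A8 and -0.52, -0.45 and -0.08 for S100A9. Over the mean of 6 days neither pair passed (r = -0.11 and -0.18, permutation p = 0.49 and 0.245, adjusted 0.787 and 0.515).

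The genes whose levels were most like each member were read over all libraries (42 steers on 6 days) by Spearman correlation among genes with a mean of at least 1 CPM, as a description over libraries that share steers, days and lanes. For CXCR1 they were RUFY4 (0.91), SLC45A4 (0.88) and NDEL1 (0.87). For S100A9 they were UPP1 (0.83), ALOX5AP (0.79) and LOC101903832 (0.78), and for ITGB2 they were MAP7D1 (0.77), FLNA (0.75) and FLII (0.74). S100A8 was nearest to rna-NR_031034.1 (0.65), C10H15orf48 (0.63) and LAMTOR5 (0.61), and S100A12 to LDHA (0.64), EMC3 (0.61) and TMEM50A (0.61). CXCR2 reached 0.37 with NDEL1, 0.37 with HBP1 and 0.37 with SRPK2, and ITGAM 0.26 with MFSD9, 0.25 with SHQ1 and 0.24 with TAF4B.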

How the data were processed

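Whole-blood RNA of 42 steers was sequenced on 6 days (stranded mRNA libraries). The authors deposited raw gene counts made, per the submitters' processing notes, with FastQC 0.11.9, Trimmomatic 0.39, HISAT2 2.1.1 and StringTie 2.2.0, with edgeR 3.36.0 also listed. StringTie's script turns coverage into counts with a read length of 150. Whether neighbouring or overlapping genes share reads was not tested. The genome build in the notes differs from that of the RefSeq gene table used here, which gave only gene names and neighbours, and no coordinates are printed.

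The members and related lists were chosen with earlier results of these data known. Groups came from the sample labels. Genes over 0.2 CPM in at least 12 libraries were tested with edgeR 4.0.16 in R 4.3.3 (quasi-likelihood test, TMM scaling, Benjamini-Hochberg adjustment over all 19056 genes). Differences among days used steer as a block, which pairs samples of the same animal, and an FDR of 0.05. Comparisons with NC used each day's 12 libraries and an FDR of 0.1, and changes from day 0 used the steer block and an FDR of 0.1. The interaction and the average over days (limma 3.58.1, voom, steer as a random block) used an FDR of 0.05. Ratios added 0.5 to each count and used sign flips; correlations used 100000 permutations, with scipy 1.17.1. Alternatives used DESeq2 1.42.0 and ComBat_seq (sva 3.50.0). The test against NC on 1 day and that of day 21 against day 0 with a steer block were tried on simulated data. The fits of the change from day 0 against NC, the interaction and the average over days were not. All members were named. From each related list, at most the 4 called genes of smallest FDR in a comparison could be named, and for each member the 3 genes nearest by Spearman correlation. Samples of the same day are separate steers, and each steer was sampled on all 6 days. Each treatment was 1 pen. Library totals were 26.1 to 74.1 in units of 1000000 counts. 1 gene of the related lists is not reported here by name.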

Additional observations from a re-analysis of the deposited data

Results flagged for a closer look

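In groups of 6 steers, the highest or lowest sample was tested for standing apart from the others by Dixon's criterion at 95%. The flags refer to levels on a log scale, and the levels below are printed as CPM. Of 294 groups of 6, 16 had such a sample, 13 low and 3 high, and chance alone gives such a sample in about 5% of groups. CXCR2 held 7 of the 16, all low.

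The low CXCR2 samples were NC steer 7 (34.6 CPM), FLOR steer 6 (9.27 CPM) and TILD steer 5 (16.1 CPM) on day 0, ENRO steer 10 (12.2 CPM) and OXYT steer 2 (2.46 CPM) on day 3, NC steer 15 on day 7 (17.9 CPM) and TILD steer 3 on day 21 (3.32 CPM). RUFY4 in the same libraries, in that order, was at 326, 337, 1008, 432, 280, 124 and 206 CPM, beside a median of 255 CPM over all libraries. How reads were divided between the CXCR2 and RUFY4 rows was not tested, which limits these flags. CXCR1 was low in TULA steer 8 on day 0 (103.5 CPM) and in TILD steer 3 on day 3 (68.8 CPM). S100A8 was low in CEFT steer 3 on day 7 (77.5 CPM) and in NC steer 13 on day 21 (84 CPM). ITGAM was low in CEFT steer 3 on day 14 (0.529 CPM) and high in TULA steer 6 on day 3 (11.1 CPM), and ITGB2 was low in CEFT steer 6 on day 56 (541 CPM). S100A9 was high in TILD steer 5 on day 0 (2251 CPM), and S100A12 was high in TULA steer 6 on day 7 (520 CPM).

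For S100A9 the course over days differed from that of NC in ENRO (interaction FDR 0.0071, edgeR) and in OXYT (interaction FDR 0.0455, edgeR), and its change from day 0 to day 7 in ENRO differed from that in NC by -1.13 on the log2 scale. That difference was below 0 in the other treatments too, without a call, against the same NC steers.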

How the results depend on the processing

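No result reversed under the alternatives run. The 3 calls of treatment against NC became 1 after ComBat_seq by lane, 1 with lane as a term and 5 by DESeq2. The 34 calls on single days became 17 in lane 1, 18 in lane 2 and 19 in lane 3, each of which holds fewer steers. The 2 interaction calls became 1 with no filter on low counts and 1 by limma. Without the steer block, treatment in its place, the calls over all days numbered 6 and those on single days 27. Steers with the same number in different groups are different animals, so no replicate block across treatments was run. For S100A9 on day 3, the log2 fold change without 1 steer at a time ranged from 0.88 to 1.17 in ENRO, 0.84 to 1.0 in OXYT and 0.79 to 0.95 in TILD. Among single genes, 564 alternative values kept their side of the threshold, 50 lost it and 9 passed it; the cause was not tested. DESeq2 on all libraries together was not run, nor was leaving out single steers for the change from day 0, the interaction and the average over days. Few counts limit ITGAM (5 to 3185 a library).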
